A study of Homo sapiens with 16 samples.

Results

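The comparison described here is the step from 4 h to 24 h of dTAG47 in open chromatin of Rh30 cells, followed over all regions of 1 count table. It takes the 4 libraries of the 24 h and 4 h groups of experiment 6086 out of 16 libraries in the series. Rh30 is an established rhabdomyosarcoma cell line, and the cells here carried PAX3-FOXO1 with an FKBP tag. The 24 h group and the 4 h group were both kept in 500 nM dTAG47, and a DMSO group of the same tagged cells served as the background level. Each of these groups had 2 libraries. For an early view, experiment 6211 held Rh30 cells with the same tag after 2 h of 500 nM dTAG47 and in DMSO, again with 2 libraries each. The labels do not say whether the tagged line was a single clone, and give DMSO no duration. Nor do they state that the replicates were grown as separate cultures. A p-value here rests on the spread between replicate libraries, pooled over the 4 groups of its experiment (a 2 h group included) and moderated across regions. That spread may be technical only.

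PAX3-FOXO1 joins the DNA-binding part of PAX3, a transcription factor of the muscle lineage, to the activating part of FOXO1, and is the driver of most alveolar rhabdomyosarcomas. dTAG47 bridges an FKBP-tagged protein to a ubiquitin ligase, which marks it for destruction. ATAC-seq reads out DNA that a transposase can reach, so that more reads over a region mean more accessible chromatin there. Changes seen within hours are usually read as closer to the loss of the degraded factor, while changes that appear within a day can also include those of the genes it controls. No measurement of the fusion itself entered this comparison. Every library came from tagged cells, so loss of the fusion, any other action of dTAG47 and longer culture cannot be told apart. Regions are given by their position on hg19. They were tied to no gene, because no annotation of that build was used here, and markers of the muscle lineage were therefore not checked.

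The 24 h libraries held 30091821 and 31308682 reads in regions, the 4 h libraries 22983080 and 25073513, and the DMSO libraries 18038062 and 25803905. Across regions the replicates of a group correlated with a Spearman's rho of 0.992 at 24 h, 0.990 at 4 h and 0.987 in DMSO. Levels are given in CPM, the read count of a region scaled by the library's TMM-corrected total. Tests were quasi-likelihood tests of edgeR, and each adjusted p was corrected by Benjamini-Hochberg over the 56945 regions tested.

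Between 4 h and 24 h, 7889 regions became less accessible and 4972 became more accessible, 13.9% and 8.73% of the regions tested (22.6% in all). Changes were mostly small. Median log2 changes were -0.42 among lower and 0.39 among higher regions, and 76.8% of the lower and 83.3% of the higher regions changed less than 1.5-fold. At least 2-fold changes were found in 209 lower regions (0.367% of those tested) and 61 higher ones (0.107%). Only 2 lower regions and 1 higher region passed 3-fold, and 0 regions passed 4-fold in either direction. These few depended on the libraries: with 1 library left out, 3 to 8 losses and 0 to 5 gains passed 3-fold, and 1 loss passed 4-fold without 24 h library B. Over all regions the median log2 change was -0.0012, close to the 0 that TMM assumes, and a change shared by all open regions would not be seen. Both 24 h libraries lay below both 4 h libraries in 7884 of the 7889 lower regions, against 30.6% of all regions tested. They lay above them in 4967 of the 4972 higher regions, against 28.1% of all. The same libraries made the calls, so this separation is a description. The counts depended on single libraries. Leaving out 4 h library A gave 5038 lower and 3200 higher regions. With 24 h library B left out 2828 regions were higher, and with 4 h library B left out 2667 were. Gains of at least 2-fold numbered 100 when 4 h library A was left out. DESeq2 called 4025 lower and 1870 higher regions, and each of these was also called by edgeR in the same direction.

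**Figure D1:**
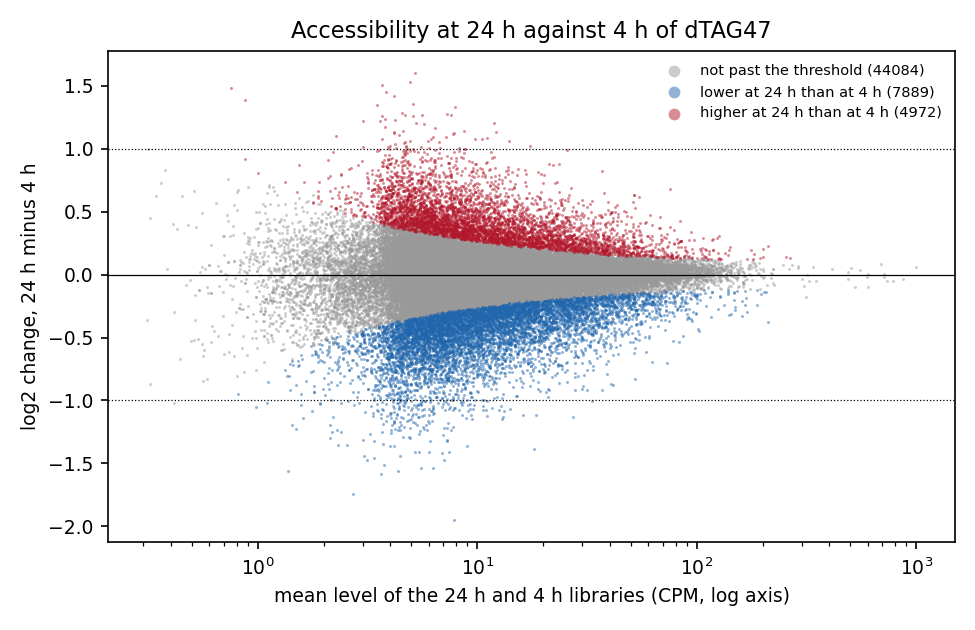
Each point is 1 of the 56945 regions tested, placed by its mean level over the 24 h and 4 h libraries (CPM, log axis) and its log2 change, 24 h minus 4 h. The 7889 lower (blue) and 4972 higher (red) regions lie on both sides of 0, most of them inside the dotted lines at 2-fold.

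Regions that changed took up a measurable part of the reads. The lower regions held 10.7% and 10.8% of reads in the 24 h libraries, against 13.9% and 13.6% in the 4 h libraries, with 14.4% and 14.1% in DMSO. The higher regions held 8.86% and 9.02% at 24 h and 7.11% and 6.98% at 4 h, against 6.89% and 6.82% in DMSO. In both sets the 24 h libraries thus stood apart from the 4 h libraries, which lay close to DMSO. Since these regions were chosen by the same libraries, the shares are a description.

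The largest loss was at 3:45589693-45590188, a region of 496 bp. It had 3.19 and 3.26 CPM in the 24 h libraries, 12.9 and 12.1 CPM in the 4 h libraries, and 15.1 and 13.9 CPM in DMSO. The region was thus at 86.2% of the DMSO level after 4 h and lost most of its accessibility afterwards, with a step of -1.95 on the log2 scale (SE 0.12, adjusted p = 1.2e-13). At 2 h in experiment 6211, which shares no library with these groups, its log2 change against DMSO was -0.10 (adjusted p = 0.57).

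The next largest losses had already begun at 4 h. At 21:33509557-33509974 the level was 1.05 and 1.43 CPM at 24 h and 4.42 and 3.92 CPM at 4 h, against 12.1 and 11.5 CPM in DMSO. This region kept 35.3% of its DMSO level at 4 h and 10.5% at 24 h, and the step alone measured -1.74 on the log2 scale (SE 0.18, adjusted p = 1.4e-08). At 14:34809317-34809801 the level was 1.84 and 1.81 CPM at 24 h and 5.81 and 5.16 CPM at 4 h, against 16.4 and 14.5 CPM in DMSO. The 24 h libraries lay below the 4 h libraries and these below DMSO, with a step of -1.58 (SE 0.16, adjusted p = 7.1e-09). This region had also fallen at 2 h in 6211 (log2 change -1.001, adjusted p = 1.7e-05).

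Among the 10 largest losses, the 24 h level was 10.5% to 38.0% of DMSO, while the 4 h level was 35.3% to 106% of it. The 4 h libraries lay below both DMSO libraries in 7 of these 10 regions and overlapped them in the other three. The group therefore holds regions that went on closing and regions that first closed after 4 h. An example with 4 h at the DMSO level is 6:35413569-35413814, with 2.63 and 3.01 CPM at 24 h and 9.80 and 6.67 CPM at 4 h, against 7.51 and 8.21 CPM in DMSO (log2 step -1.53, SE 0.15, adjusted p = 4.1e-09). Its 4 h libraries lay far apart from each other, one above and one below both DMSO libraries. The region 10:98884075-98884186, only 112 bp wide, had the fewest reads of the 10, 15 and 28 at 24 h against 46 and 53 at 4 h (log2 step -1.56, SE 0.26, adjusted p = 2.5e-05).

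Among stronger regions, those with a mean count of at least 300, the deepest losses were smaller. The first of them was at 6:118709082-118709846, with 10.1 and 9.89 CPM at 24 h and 26.3 and 25.9 CPM at 4 h, against 28.1 and 28.2 CPM in DMSO. The replicates of each group nearly coincide here, and the step measured -1.38 on the log2 scale (SE 0.08, adjusted p = 1.2e-13). At 9:116983956-116984578 the 24 h libraries had 4.70 and 4.02 CPM and the 4 h libraries 10.2 and 10.1 CPM, against 24.5 and 24.4 CPM in DMSO. That loss ran through both intervals, with 41.5% of the DMSO level left at 4 h and 17.8% at 24 h (step -1.22, SE 0.11, adjusted p = 9.4e-10). By contrast 1:227953907-227954335 had 7.89 and 8.21 CPM at 24 h and 17.7 and 18.0 CPM at 4 h, against 15.3 and 17.2 CPM in DMSO, so both 4 h libraries lay above DMSO (step -1.15, SE 0.09, adjusted p = 6.5e-11). The other two strong losses, on chromosomes 8 and 11, had log2 changes of -1.37 and -1.13.

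The largest gain was at 11:39987375-39987582. Its level was 7.497 and 8.05 CPM at 24 h and 2.73 and 2.40 CPM at 4 h, against 2.18 and 3.01 CPM in DMSO. The 4 h and DMSO libraries overlapped and the 24 h libraries stood clear of both, with a step of 1.60 on the log2 scale (SE 0.14, adjusted p = 6.0e-10). At 1:55025490-55025695 the level was 7.20 and 7.48 CPM at 24 h and 2.60 and 2.48 CPM at 4 h, against 2.18 and 2.43 CPM in DMSO (log2 step 1.53, SE 0.14, adjusted p = 6.6e-10). At 13:84819645-84819855 it was 5.23 and 5.64 CPM at 24 h and 2.39 and 1.48 CPM at 4 h, against 2.13 and 1.60 CPM in DMSO (log2 step 1.503, SE 0.18, adjusted p = 7.8e-08). In these 3 regions the 4 h level was 98.7%, 110% and 104% of DMSO. Both 4 h libraries lay slightly above both DMSO libraries at the region on chromosome 1, and overlapped them at the others.

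In other regions the 4 h level stood further above DMSO. At 16:46952967-46953101 the 24 h libraries had 5.03 and 5.04 CPM and the 4 h libraries 1.95 and 2.00 CPM, against 1.34 and 0.900 CPM in DMSO (log2 step 1.35, SE 0.17, adjusted p = 2.3e-07). At 10:50282988-50283348 the values were 10.6 and 12.1 CPM at 24 h and 4.68 and 4.36 CPM at 4 h, against 3.36 and 3.32 CPM in DMSO (log2 step 1.33, SE 0.12, adjusted p = 3.9e-10). In both regions the 3 groups were in the order of time without overlap. Over the 10 largest gains, the 24 h level was 250% to 449% of DMSO and the 4 h level 94.0% to 176%. The 4 h libraries lay above DMSO in 5 of the 10 and overlapped it in 5. These regions were 135 to 442 bp wide, 8 of them under 300 bp. The 10 largest losses were 102 to 496 bp wide, 5 of them under 300 bp, and the median over all regions tested was 320 bp. Of the 10 gains 0 could be matched to a region of experiment 6211. Of the 10 largest losses 7 were matched, and of all regions tested 52.0%. The 10 gains averaged 66.5 to 153.75 reads. Of the 29639 matched regions 3914 averaged under 200 reads, whereas over all regions 4345 averaged under 100 and 17849 from 100 to 200. Experiment 6211 had no 24 h library, and why these gains had no match was not tested.

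**Figure D2:**
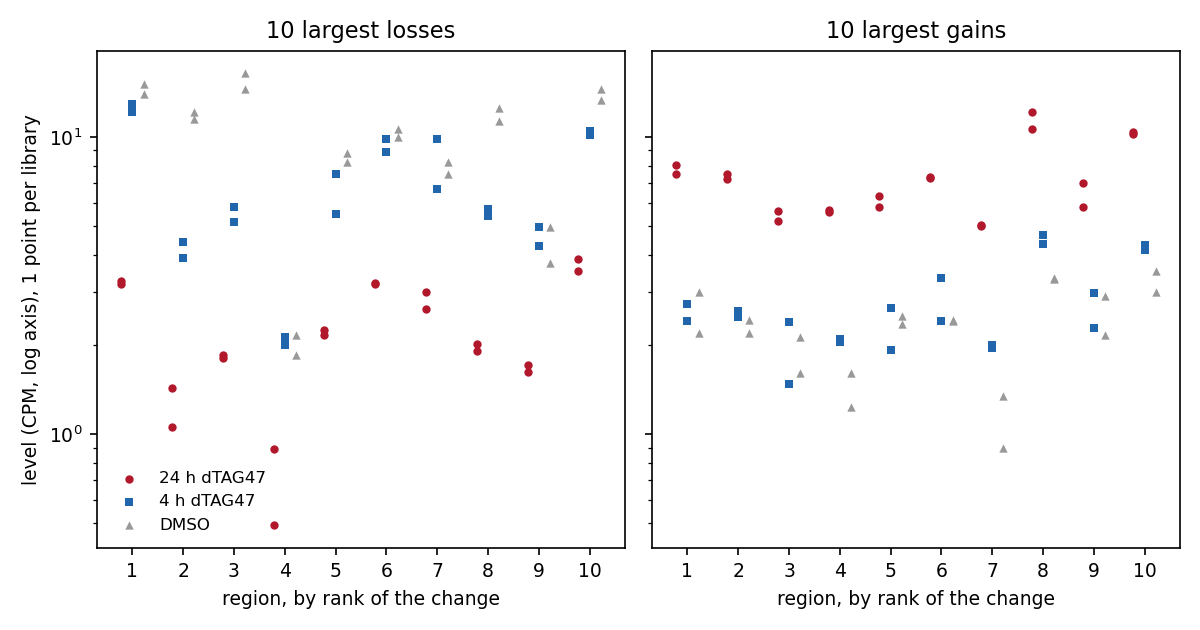
Levels (CPM, log axis) of the 10 largest losses (left) and the 10 largest gains (right) at 24 h against 4 h, with 1 point for each library. The 24 h points (red circles) lie below all 4 h points (blue squares) on the left and above them on the right, whereas the 4 h points lie at the DMSO points (grey triangles) in some regions and away from them in others.

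Among regions with a mean count of at least 300 the largest gain was at 17:20935085-20935572, with 22.2 and 24.3 CPM at 24 h and 12.8 and 10.2 CPM at 4 h, against 11.7 and 13.1 CPM in DMSO (log2 step 1.02, SE 0.09, adjusted p = 9.4e-10). It was followed by 2:39957342-39958108, with 33.8 and 34.2 CPM at 24 h and 17.4 and 16.7 CPM at 4 h, against 15.6 and 16.3 CPM in DMSO (log2 step 0.99, SE 0.07, adjusted p = 1.4e-11). The 5 strongest of these gains stood at 187% to 215% of DMSO at 24 h, against 92.7% to 117% at 4 h. Against 4 h the gains of strong regions were 1.83-fold to 2.03-fold and the losses 2.20-fold to 2.61-fold.

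Some regions reversed their course. Of 1387 regions whose 4 h libraries lay below DMSO, by at least 1.5-fold in the mean, 106 rose (7.64%, against 8.73% of all regions tested) and 453 fell further (32.7%, against 13.9% of all). The share that rose was thus near that of all regions. At 6:164198813-164199259 the level was 17.1 and 15.9 CPM at 24 h and 7.72 and 6.67 CPM at 4 h, against 11.4 and 10.6 CPM in DMSO (log2 step 1.20, SE 0.10, adjusted p = 1.1e-10). This region had fallen at 2 h in 6211 as well (log2 change -0.71, adjusted p = 0.0025), and it ended above DMSO. At 5:56645007-56645401 the level was 11.1 and 10.1 CPM at 24 h and 5.42 and 4.40 CPM at 4 h, against 11.7 and 9.62 CPM in DMSO, so the 24 h libraries were back within the range of DMSO (log2 step 1.12, SE 0.13, adjusted p = 8.1e-08).

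The opposite course was also present. Of 1728 regions whose 4 h libraries lay above DMSO, by at least 25% in the mean, 177 fell (10.2%, against 13.9% of all). A further rise was found in 379 (21.9%, against 8.73% of all). The share that fell was thus below that of all regions. At 2:75784072-75784373 the level was 4.31 and 4.66 CPM at 24 h and 9.98 and 10.3 CPM at 4 h, against 7.45 and 8.45 CPM in DMSO (log2 step -1.18, SE 0.12, adjusted p = 4.1e-09). Its 2 h change in 6211 was a gain (log2 change 0.46, adjusted p = 0.037). At 1:6097460-6097611 the level was 1.78 and 2.06 CPM at 24 h and 5.08 and 4.56 CPM at 4 h, against 3.47 and 3.755 CPM in DMSO (log2 step -1.32, SE 0.16, adjusted p = 1.4e-07). Both regions lay below DMSO at 24 h and above it at 4 h. The 4 h libraries both chose these pools and entered the step, so the counts are a description.

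Set against DMSO, most regions that changed in this step ended outside the DMSO range. Of the 7889 lower regions, 93.6% had both 24 h libraries below both DMSO libraries (32.4% of all regions tested), and 31.8% were already below it at 4 h (22.2% of all). A further 44.3% overlapped DMSO at 4 h (55.4% of all) and 23.9% were above it (22.4% of all). Of the 4972 higher regions, 91.0% were above DMSO at 24 h (29.5% of all). At 4 h 35.1% of them were above it (22.4% of all) and 19.7% below it (22.2% of all). In 584 higher regions (11.7%, against 1.74% of all regions) the libraries were above DMSO at 24 h and below it at 4 h. In 1483 lower regions (18.8%, against 3.33% of all) they were below it at 24 h and above it at 4 h. The step and these places share libraries. With mean levels at least 25% above or 20% below DMSO as the rule instead, 68.5% of the lower regions were below DMSO at 24 h (15.4% of all) and 12.1% at 4 h (6.25% of all). Of the higher regions 67.8% were above it at 24 h (10.7% of all) and 7.82% at 4 h (3.16% of all). By that measure 2.24% of the lower regions were above DMSO at 4 h, against 3.16% of all, and 6.28% of the higher ones below it, against 6.25% of all.

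**Figure D3:**
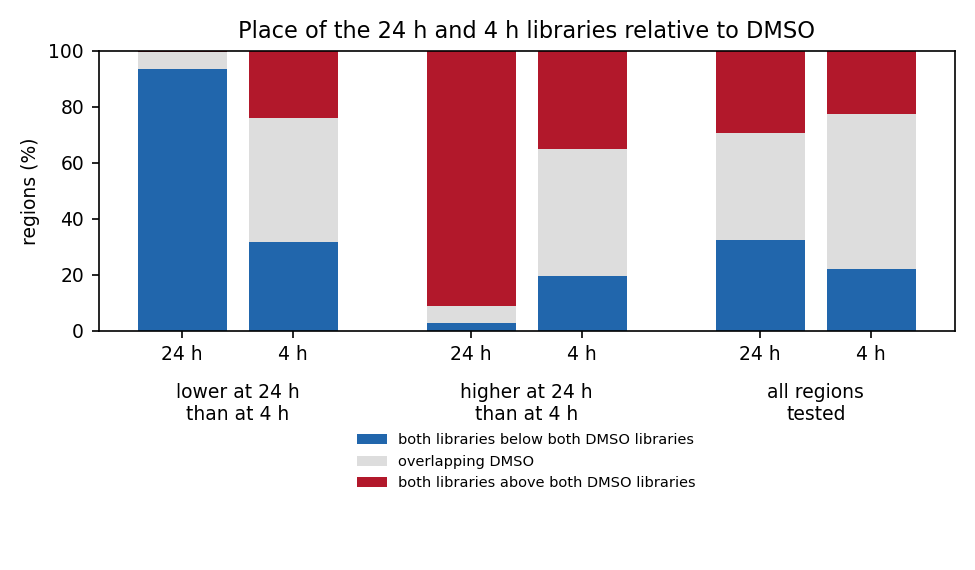
Share of regions (%) whose 2 libraries at 24 h or at 4 h lay both below (blue), overlapping (grey) or both above (red) the DMSO libraries, for regions lower in the step, regions higher in the step and all regions tested. At 24 h 93.6% of the lower regions were below DMSO and 91.0% of the higher ones above it, against 31.8% and 35.1% at 4 h.

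The regions with changes of at least 2-fold were narrow and of low coverage. The 209 losses had a median width of 256 bp, and their median level was 3.16 CPM at 24 h and 6.93 CPM at 4 h, against 8.08 CPM in DMSO. All 209 were below DMSO at 24 h, whereas at 4 h 103 were below it (49.3%, against 22.2% of all regions tested), 70 overlapped it (33.5%, against 55.4%) and 36 were above it (17.2%, against 22.4%). The 61 gains had a median width of 225 bp and a median level of 6.65 CPM at 24 h and 3.02 CPM at 4 h, against 2.999 CPM in DMSO. At 24 h 59 of them were above DMSO, and at 4 h 20 were above it (32.8%), 27 overlapped it (44.3%) and 14 were below it (23.0%). Relative to DMSO the median log2 level of the losses was -1.26 at 24 h and -0.12 at 4 h, and that of the gains 1.22 at 24 h and 0.07 at 4 h.

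Experiment 6211 gave a view of the early change that shares no library with the step. Of the regions tested, 29639 could be matched to a single region of 6211, among them 5242 of the lower regions (66.4%) and 2266 of the higher ones (45.6%), against 52.0% of all regions. At 2 h in 6211, 87.6% of the lower and 91.1% of the higher regions had not been called, against 93.0% of all matched regions. Among the lower regions 8.60% were lower and 3.83% higher at 2 h, against 5.05% and 1.92% of all. Among the higher regions these shares were 5.38% and 3.49%. The median 2 h change was 0.05 for the lower regions and 0.04 for the higher ones, against 0.02 for all matched regions. The set that fell and the set that rose between 4 h and 24 h thus both had medians near 0 at 2 h.

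Regions lost early fell again in part. Of 1496 matched regions lower at 2 h in 6211 (5.05% of those matched), 451 fell between 4 h and 24 h, which is 30.1% against 17.7% of all matched regions. A rise was found in 122 of them, 8.16% against 7.65% of all. The share that fell was 18.8% against 11.6% of all without 4 h library A, and 17.6% against 9.70% with DESeq2. The share that rose was 4.95% against 4.09% of all without 24 h library B, 3.28% against 3.81% without 4 h library B, and 3.48% against 2.94% with DESeq2, so it lay on both sides of that of all regions. Of the 195 regions that had lost at least 2-fold at 2 h, 72 fell (36.9%) and 14 rose (7.18%). By mean count the shares that fell were 33.5% against 26.3% of all under 200 reads, 29.3% against 17.6% from 200 to 500 reads and 26.7% against 13.9% from 500 reads. Over the 1496 regions the median log2 level relative to DMSO was -0.70 in both 24 h libraries and -0.57 and -0.62 in the 4 h libraries, with 0.04 and -0.04 in the DMSO libraries. The set was thus only slightly lower at 24 h than at 4 h, and most of its loss was present by 4 h.

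Regions gained early were near the DMSO level as a set at 4 h already, and at it at 24 h. Of 569 matched regions higher at 2 h in 6211 (1.92% of those matched), 201 fell in the step (35.3%, against 17.7% of all matched) and 79 rose (13.9%, against 7.65%). With DESeq2 these shares were 20.2% against 9.70% and 6.503% against 2.94%. The share that rose was 6.85% against 4.09% with 24 h library B left out, 8.61% against 4.85% with 4 h library A left out, and 8.44% against 3.81% with 4 h library B left out. Their median log2 level relative to DMSO was -0.01 and 0.02 in the 24 h libraries and 0.13 in both 4 h libraries, with -0.01 and 0.01 in the DMSO libraries. The 24 h libraries lay on both sides of 0, below both 4 h libraries. On chromosome 12 from 57 to 59 Mb the 101 matched regions had a median 2 h change of 0.28 in 6211, against 0.02 over all matched regions, and without that stretch, chosen after seeing the data, 533 early gains were left, of which 35.6% fell and 14.4% rose. Over all matched regions the share that fell was 36.9% where the 2 h change in 6211 was below -1 on the log2 scale, 13.1% from -0.25 to 0 and 27.6% from 0.5 upwards. The share that rose was 7.18% and 6.66% in the first and second of these classes, against 7.65% of all matched regions. In the last class 44 of 275 regions rose, a larger share than in any other class of the 2 h change. The class with the largest early gains thus had more regions that fell and more that rose, in share, than all matched regions. With 2 libraries against 2, an exact two-sided permutation test of a set's median cannot go below p = 0.333, so none is given.

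**Figure D4:**
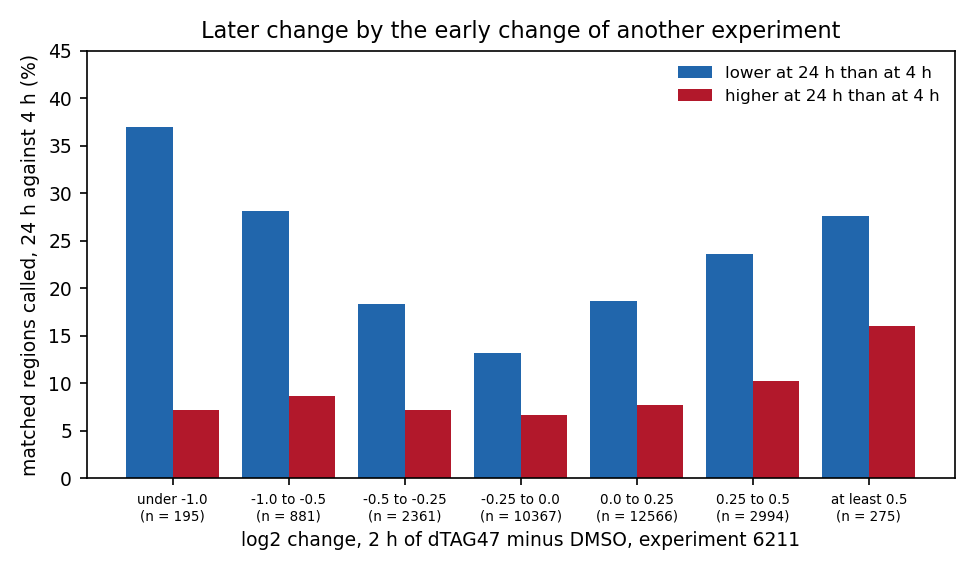
Share (%) of matched regions that were lower (blue) or higher (red) at 24 h than at 4 h in experiment 6086, by their log2 change at 2 h against DMSO in experiment 6211, with the number of regions under each class. The share lower is 36.9% in the class with the deepest early loss, 13.1% in the class from -0.25 to 0 and 27.6% in the class with the largest early gain. Median mean counts in these classes are 175, 380 and 261 reads, and the part of read count was not tested.

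The regions that changed were ordinary in size. Their median width was 339 bp for the lower and 325 bp for the higher ones, against 320 bp for all regions tested, and their median mean counts were 268 and 228 reads against 258. Wide regions, of 800 bp or more, were called lower in 10.7% and higher in 6.10% of 6570 cases, and 0 of them changed 2-fold. In regions from 200 to under 400 bp the shares were 16.1% and 10.2%, with 120 losses and 36 gains of at least 2-fold among 22290 regions. The median absolute log2 change over all regions was 0.17 under 200 bp, 0.16 from 200 bp, 0.10 from 400 bp and 0.06 from 800 bp. Wide regions also held more reads (a median mean count of 1190 against 117 under 200 bp), and the part of counting noise in this trend was not tested. Within classes of mean count the share that fell had no single order by width. From 500 to 1000 reads it was 11.01% of 563 regions of 200 to 400 bp, 14.5% of 6835 regions of 400 to 800 bp and 11.7% of 2224 wider ones. From 100 to 200 reads it was 11.3% under 200 bp and 16.4% from 200 to 400 bp, and it was higher again in the 160 regions from 400 bp.

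Every chromosome compared had more lower than higher regions. The lower share was 17.7% on chromosome 20, 16.2% on chromosome 1 and 15.6% on chromosome 21, and it was 8.40% on chromosome X and 10.7% on chromosome 19. The higher share was 11.4% on chromosome 21, 10.5% on chromosome 20 and 5.48% on chromosome 19. Chromosome 19 thus had few calls in both directions, and 4 of its 2354 regions lost and 0 gained at least 2-fold. The median log2 change of a chromosome's regions lay between -0.01 (chromosome 1) and 0.02 (chromosome X).

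**Figure D5:**
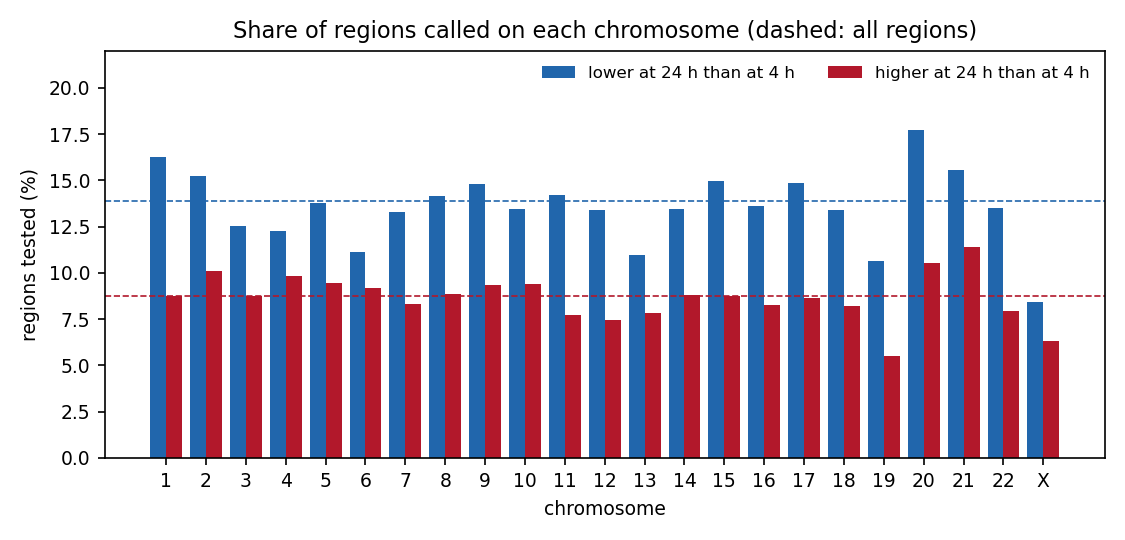
Share (%) of tested regions on each chromosome that were lower (blue) or higher (red) at 24 h than at 4 h, with dashed lines at the shares over all regions, 13.9% and 8.73%. Chromosome 20 has the highest share of lower regions, 17.7%, and chromosome 19 the lowest share of higher ones, 5.48%.

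Regions that changed lay near others that changed the same way. Of the lower regions, 55.5% had another lower region within 50 kb, against 40.4% of the regions not called and 38.3% of the higher ones. Of the higher regions, 41.1% had another higher region within 50 kb, against 29.0% of those not called and 30.1% of the lower ones. Lower regions also had somewhat more tested regions around them, a mean of 5.57 within 50 kb against 5.07 for the higher and 4.93 for the regions not called, and the part of this density in the shares was not tested. Among 1649 pairs of adjacent called regions within 10 kb, 75.5% changed in the same direction, 866 pairs down and 379 up. Over all 23764 adjacent pairs within that distance, 56.1% had the same sign. That share includes regions not called and is not a like measure. Of all called regions 61.3% were lower, so some called pairs would share a direction in any order.

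The longest unbroken row of calls, chosen after its values were seen, was on chromosome 1 from 12148756 to 12246537, where 10 consecutive regions fell. Their summed level was 163 and 167 CPM in the 24 h libraries and 225 and 224 CPM in the 4 h libraries, against 232 and 235 CPM in DMSO. The groups did not overlap, and the 10 log2 changes ran from -0.67 to -0.31, so many small losses added up with no 2-fold loss among them. The deepest was at 1:12193030-12193591, with 14.2 ± 0.0839 CPM at 24 h and 22.6 ± 0.364 CPM at 4 h, against 23.1 ± 1.07 CPM in DMSO (SD, n = 2; adjusted p = 6.7e-08 in edgeR).

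Rows of 7 consecutive losses lay on chromosome 2 from 23643899 to 23676195 and on chromosome 18 from 21341944 to 21547667. On chromosome 2 the summed level was 116 and 120 CPM at 24 h and 147 and 146 CPM at 4 h, against 156 and 155 CPM in DMSO. On chromosome 18 it was 44.4 and 45.3 CPM at 24 h and 65.2 and 60.6 CPM at 4 h, against 67.4 and 67.5 CPM in DMSO. In all 3 rows of losses the 4 h libraries were nearer to DMSO than to 24 h.

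On chromosome 4, 5 consecutive regions from 7489257 to 7548283 rose, also chosen after their values were seen. Their summed level was 55.7 and 57.1 CPM at 24 h and 38.0 and 37.8 CPM at 4 h, against 39.7 and 37.9 CPM in DMSO. The 4 h libraries overlapped DMSO in this sum, while single regions lay apart from it. At 4:7511508-7511638 the level was 5.10 and 5.26 CPM at 24 h and 2.00 and 2.32 CPM at 4 h, against 3.19 and 3.64 CPM in DMSO (log2 step 1.26, SE 0.15, adjusted p = 2.0e-07). The window from 7 to 8 Mb of that chromosome held 19 higher regions among 87 (21.8%, against 8.73% of all regions tested) and 10 lower ones. No other 1 Mb window held as many higher regions. For losses the highest number was 29 of 81 regions (35.8%, against 13.9% of all), with 2 higher ones, on chromosome 16 from 66 to 67 Mb. Among 1112 windows with at least 20 regions, 1 had 50% of its regions lower, on chromosome 14 from 101 to 102 Mb, where 19 of 38 fell and 2 rose. No such window reached that share for gains. The nearest was chromosome 5 from 123 to 124 Mb, where 9 of 21 regions rose (42.9%) and 2 fell.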

How the data were processed

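ATAC-seq reads of Rh30 cells were counted per region by the authors. The deposited tables hold raw read counts (whole numbers, with library totals that differ) for 56949 regions in experiment 6086 and 40844 in 6211. Tools named in the submitters' processing notes, with no roles, are Genrich 0.6.1, Trimmomatic 0.32, deepTools, DiffBind, Bowtie2 and DESeq2, and the builds named are hg19 and dm3. Treatment of duplicates, of mitochondrial reads and of the transposase offset, and the merging of peaks, are not given in the sources used here. Positions are those of the tables, taken as hg19. The authors' comparisons with DMSO were not used here.

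The names of columns give treatment and time, which set the group. How their letters, A and B, relate to replicate numbers is not stated in the labels. Replicate pairs differed beyond sampling noise (chi-square of 1.34 to 1.96 per degree of freedom). The 8 libraries of 6086 entered 1 edgeR 4.0.16 fit (R 4.3.3, TMM, filterByExpr, quasi-likelihood test, 4 residual degrees of freedom, prior degrees of freedom 29.9), with the contrast 24 h minus 4 h and calls at an adjusted p under 0.05. The SE is the size of the log2 change over the square root of F. The fit was tested on simulated data. Experiment 6211 was fitted alike for 2 h against DMSO, and bedtools 2.31.1 paired its regions where the reciprocal overlap was 50% or more and each had 1 partner only.

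Named regions were called, averaged 30 reads or more, and showed no overlap between 24 h and 4 h libraries in log-CPM (prior count 2). They are the 10 largest changes in each direction, the 5 largest from a mean count of 300, and 3 in each direction of regions that reversed, whose 4 h level was at least 1.5-fold below or 1.25-fold above DMSO. The comparison, its rules and lists were chosen with earlier results of these data known. Gene lists, promoters and motifs of the design were not analysed here, since no genome of the build was used. Alternatives were DESeq2 1.42.0, other scalings (library size, median ratio, TMM on the upper 25% of regions, a loess offset with limma 3.58.1), other filters, fewer libraries in the fit, a replicate block, leaving out each library, and other rules for matching, for place and for neighbours.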

Additional observations from a re-analysis of the deposited data

How the results depend on the processing

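The 36 named regions kept their direction and passed the threshold in all 13 alternative fits. DESeq2 called 4025 lower and 1870 higher regions. Leaving out 1 of the 4 libraries, with the lone library assumed to vary like the other groups, gave 5038 to 5713 lower and 2667 to 3490 higher regions, 199 to 260 losses and 59 to 100 gains of at least 2-fold. Without 4 h library A these gains were 100. Fewer libraries were in those fits, and the cause of the DESeq2 counts was not tested. In the other scalings, filters and the fit of only the 4 libraries compared the counts were 7423 to 8160 lower and 4971 to 6193 higher. The median change lay between -0.0073 and 0.0117 in all fits, and the lower share of calls between 56.9% and 68.3%. In these 13 fits 0 regions were called in the direction opposite to that reported.

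The replicate block by column letter gave 7594 lower and 4643 higher regions and changed no call of a named region. Differences between A and B correlated at -0.05 between 24 h and 4 h and at -0.14 to 0.15 over all pairs of groups. These differences hold counting noise, so such values cannot decide whether the letters mark pairs of libraries.

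With mean levels at least 25% above or 20% below DMSO as the rule, the lower regions were below DMSO in 68.5% at 24 h and 12.1% at 4 h (15.4% and 6.25% of all regions), and above it in 0.0127% and 2.24% (10.7% and 3.16% of all). The higher regions were above DMSO in 67.8% at 24 h and 7.82% at 4 h, and below it in 1.29% and 6.28%. Within 10 kb instead of 50 kb, 24.7% of lower and 17.6% of higher regions had a neighbour called the same way, against 14.0% and 9.03% of the regions not called. Matching by any overlap or by 80% gave median 2 h changes in 6211 of 0.05 and 0.06 for lower and 0.04 and 0.04 for higher regions. As alternatives chosen after seeing the data, the share of early losses that fell again was 1.62 to 1.81 times that of all matched regions in the 13 fits, and the share that rose 0.861 to 1.21 times.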
